A study of Mus musculus with 20 samples.

Results

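Melb-a cells, an immortal mouse line of melanoblasts (the precursors of pigment cells), were compared after transduction with a lentivirus carrying the hairpin shHIRA II and with a control hairpin. The comparison uses 12 of the 20 libraries of the study. They are the 4 libraries labelled shHIRA II, the 4 with a hairpin against luciferase (shLuciferase), which mouse cells do not make, and the 4 with a scrambled hairpin (shScramble). The other libraries, 4 of parental cells without virus and 4 with another hairpin against Hira (shHIRA I), entered the model and serve as second references. All cells are labelled wild type and grew in medium with 10% serum, 10 ng/ml SCF (the Kit ligand) and 40 pM Fgf2. Transduced cells had virus with 8 µg/ml polybrene for 16 h and were selected with 1 µg/ml puromycin. All 3 groups compared therefore share virus, hairpin expression and selection. Poly(A) RNA was sequenced from stranded libraries of cells in bulk, so fewer cells of a kind and less RNA per cell cannot be told apart. Per the design text the replicates are independent; separate transductions are not mentioned, and p-values measure the spread between these libraries.

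The HIRA protein loads histone H3.3 onto chromatin independently of replication, as part of a complex with UBN1 or UBN2 and CABIN1 and with the help of ASF1A. In the melanocyte lineage the transcription factor MITF switches on the enzymes of melanin synthesis (TYR, TYRP1, DCT) and the proteins of the melanosome, the lysosome-related organelle in which melanin is laid down. Signals through the receptor KIT and through FGF receptors keep melanoblasts alive and dividing. The Etv factors and the Sprouty proteins are well-known outputs and brakes of the FGF and MAPK pathway.

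The 12 libraries held between 16.1 and 20.7 M estimated counts (M, 1e6), and the 4 labelled shHIRA II had a mean of 16.8 M ± 0.783 (SD, n = 4). Transcripts of the mitochondrial genome took 4.70%, 2.88%, 4.45% and 4.71% of the counts of the shHIRA II libraries and between 6.43% and 9.96% of those of the control hairpin libraries. The groups did not overlap, and the means differed by -3.92 percentage points (two-sided exact permutation test, p = 0.00202, the smallest that 4 against 8 libraries can give). This share is a property of the whole library that moves with the hairpin, so each gene was also tested with it as a covariate. Since the groups do not overlap in the share, effects of the hairpin and of the share cannot be told apart by that fit. A call can be lost in it through a wider error even where the difference is as large as before. That fit takes its slope from the spread within groups, which was widest for shHIRA I (SD 3.44 percentage points, against 0.876 to 1.51 in the other groups), whose replicate 3 stood at 1.23%. With that library left out, a choice made after seeing the data, the covariate fit called 1901 genes in place of 2767, and 95 in place of 115 of the 160 called genes examined one by one. Of the markers of melanoblasts, Mitf, Kit, Dct and Pax3 were well detected. Ednrb, the endothelin receptor of melanoblasts, stayed at or below 0.0541 TPM (transcripts per 1e6 transcripts, a measure per length) in all 20 libraries. Sox10 was near 0 in most libraries and reached 11.2 TPM in a parental one. Few or no counts were assigned to these markers in most libraries, which is at odds with the labelled cell type for them. Sox10 differed widely even between parental libraries, at 0.246, 0.220, 29.8 and 0.154 counts per 1e6 counts. Whether the low values mean missing transcripts or counts not assigned to these genes was not tested.

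Hira itself was hardly lower than with the control hairpins. Its level was 63.2, 63.3, 70.9 and 69.8 CPM with shHIRA II, 89.8, 72.2, 87.1 and 63.7 CPM with shLuciferase and 81.7, 64.4, 71.3 and 79.0 CPM with shScramble. CPM stands for counts per 1e6 counts after scaling between libraries. The ranges overlapped, and the level with shHIRA II was 87.8% of the control hairpins (95% interval 72.01% to 107%). All differences are given on the log2 scale with their standard error (SE), tested with edgeR's quasi-likelihood test and adjusted over all genes by Benjamini-Hochberg; for Hira the difference was -0.19 (SE 0.14, adjusted p = 0.306). The shHIRA I libraries held 45.4, 26.6, 41.8 and 33.3 CPM, and shHIRA II was higher than shHIRA I (difference 0.86, SE 0.16, adjusted p = 0.00096). Parental libraries held 85.3, 84.4, 81.9 and 101 CPM, all above those with shHIRA II. The difference from parental cells was -0.40 and did not pass (adjusted p = 0.0618). Under the mitochondrial covariate the Hira difference was -0.46 and passed the threshold (adjusted p = 0.0394), and it was -0.57 without shHIRA I replicate 3 (adjusted p = 0.0387). Hira lies on chromosome 16 from 18877037 to 18970309 (GRCm38, plus strand), and 44.7% of its exonic bases are also exons of the overlapping gene Gm28539 on the same strand. All exonic bases of Gm28539 (100%) are shared on that strand with 2510002D24Rik or Hira. Estimated counts can be split between the overlapping genes. Gm28539, chosen for mention after its values were seen, was at 0 in all 4 shHIRA II libraries and in all 4 shHIRA I libraries, and was above 0 in 7 of 8 control hairpin libraries. Against a floor of 3 counts over the group, the counts assigned to it were at least 114-fold lower with shHIRA II. By the 95% counting interval, which covers counting error only, they were at least 92.5-fold lower. Its levels ranged from 0 to 17.2 CPM in parental and from 0 to 11.4 CPM in shScramble libraries. Loss of a separate transcript and another split of shared counts cannot be told apart. The Gm28539 call was lost with the covariate (adjusted p = 0.0658) and with limma on log2(TPM + 1) (adjusted p = 0.058). Since the transcript level of the target is so little changed against the control hairpins, every direction below is that of the libraries labelled shHIRA II. It is not plainly one of Hira loss.

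Of 10 genes for the HIRA complex, the H3.3 genes and their partners, 3 rose and 1 fell (median 0.03), beside 15.7% and 16.7% of all genes, and 1 rose without shHIRA II replicate 2. H3f3a, one of the genes that encode H3.3, fell: its level was 624 to 750.0 CPM against 910.4 to 1172 CPM in the control hairpin libraries (log2 fold change -0.60, SE 0.11, adjusted p = 0.000695). The other H3.3 gene, H3f3b, rose (605 to 754 CPM against 336 to 582 CPM; log2 fold change 0.52, SE 0.15, adjusted p = 0.0136), as did Daxx, which encodes the H3.3 chaperone of heterochromatin (0.69, SE 0.16, adjusted p = 0.00265), and Asf1a (0.62, SE 0.19, adjusted p = 0.0159). The calls of H3f3b and Asf1a were lost without shHIRA II replicate 2, and those of H3f3b, Daxx and Asf1a under the covariate. For 2 complex partners the differences were 0.078 for Ubn2 and -0.50 for Cabin1, neither of which passed. Cabin1 did pass with 12 libraries in the fit and with the spread estimated without shHIRA I replicate 3. It also passed without shScramble replicate 2 or shHIRA II replicate 3.

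**Figure D1:**
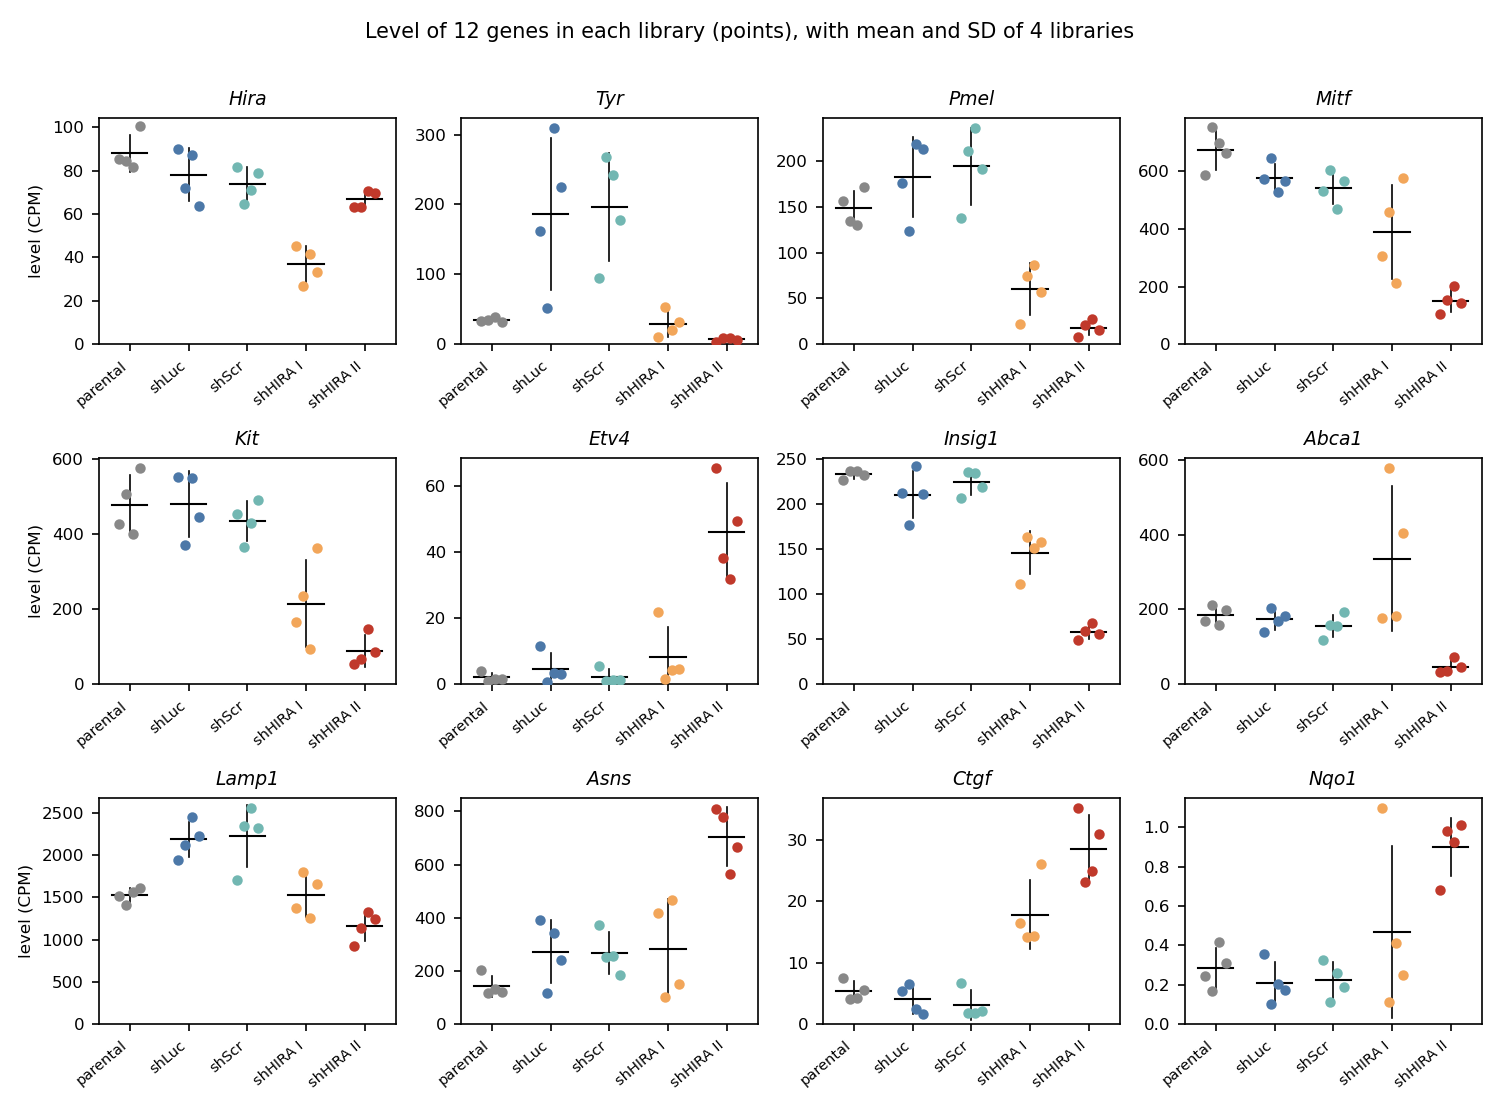
Level of 12 genes in every library (points, in CPM on a linear axis from 0), with the mean (horizontal line) and SD (vertical line) of 4 libraries, for the parental, shLuciferase (shLuc), shScramble (shScr), shHIRA I and shHIRA II groups. The shHIRA II points overlap those of the control hairpins for Hira and lie wholly below or above them for the other 11 genes.

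Across the transcriptome the libraries labelled shHIRA II differed widely from the control hairpins. Of 13541 genes tested, 4394 (32.4%) had an adjusted p under 0.05, 2132 higher (15.7%) and 2262 lower (16.7%). Of these, 1732 (12.8%) had changed at least 2-fold, 795 higher (5.87%) and 937 lower (6.92%). On the TPM scale with limma the split of calls was 2636 higher and 1649 lower (pseudocount 1) or 2586 and 1705 (pseudocount 0.1), so the share of higher calls went from 48.5% to 61.5% or 60.3%. All 4 shHIRA II libraries lay above all 8 control hairpin libraries in 1529 genes (11.3%) and below them in 1718 (12.7%), together 24% of the genes tested. Taken one at a time, 3296 genes (24.3%) were called against shLuciferase and 3361 (24.8%) against shScramble. Called in 1 direction against both were 2722 genes (20.1%), 1119 higher (8.26%) and 1603 lower (11.8%). Between shScramble and shLuciferase edgeR called 0 genes (0%), 170 (1.26%) had an unadjusted p under 0.05, and DESeq2 called 5. Under the covariate fit 2767 genes were called, of which 2007 were among the 4394 with the same direction and 0 had the opposite one. Of the 13541 genes, that fit called 1236 higher and 1531 lower, and list counts given under the covariate are to be read against these. In the main fit the median difference over all genes tested was 0.02 (log2). Its counts for each list of genes below are to be read against that median and against the shares of 15.7% higher and 16.7% lower. Of 41 lists, the plot of the lists puts pigment synthesis at the lower end and the neuronal markers, with 4 tested members, and the neural crest genes at the upper end.

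**Figure D2:**
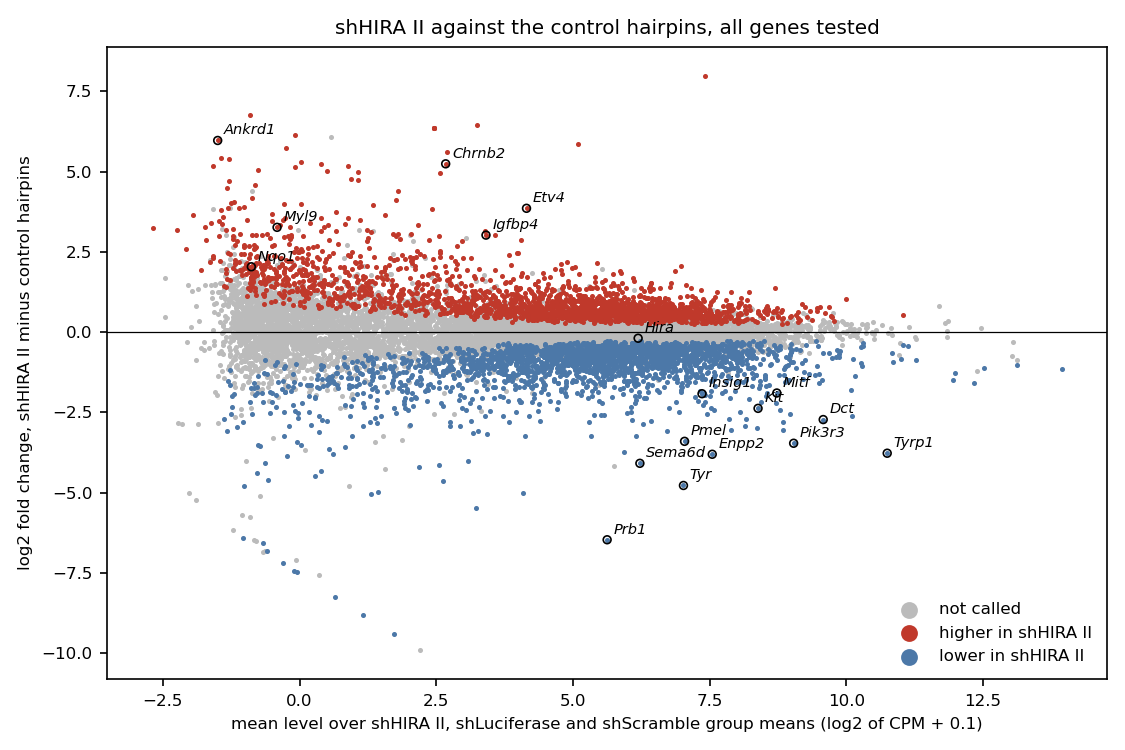
Log2 fold change of shHIRA II against the control hairpins (vertical axis) by mean level (horizontal axis, log2 of CPM + 0.1) for the 13541 genes tested, with 2132 called higher in red, 2262 called lower in blue and the rest in grey. Circles mark 18 genes of the text; Tyr, Sema6d and Prb1 lie among the lowest points, and Hira lies near 0.

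**Figure D3:**
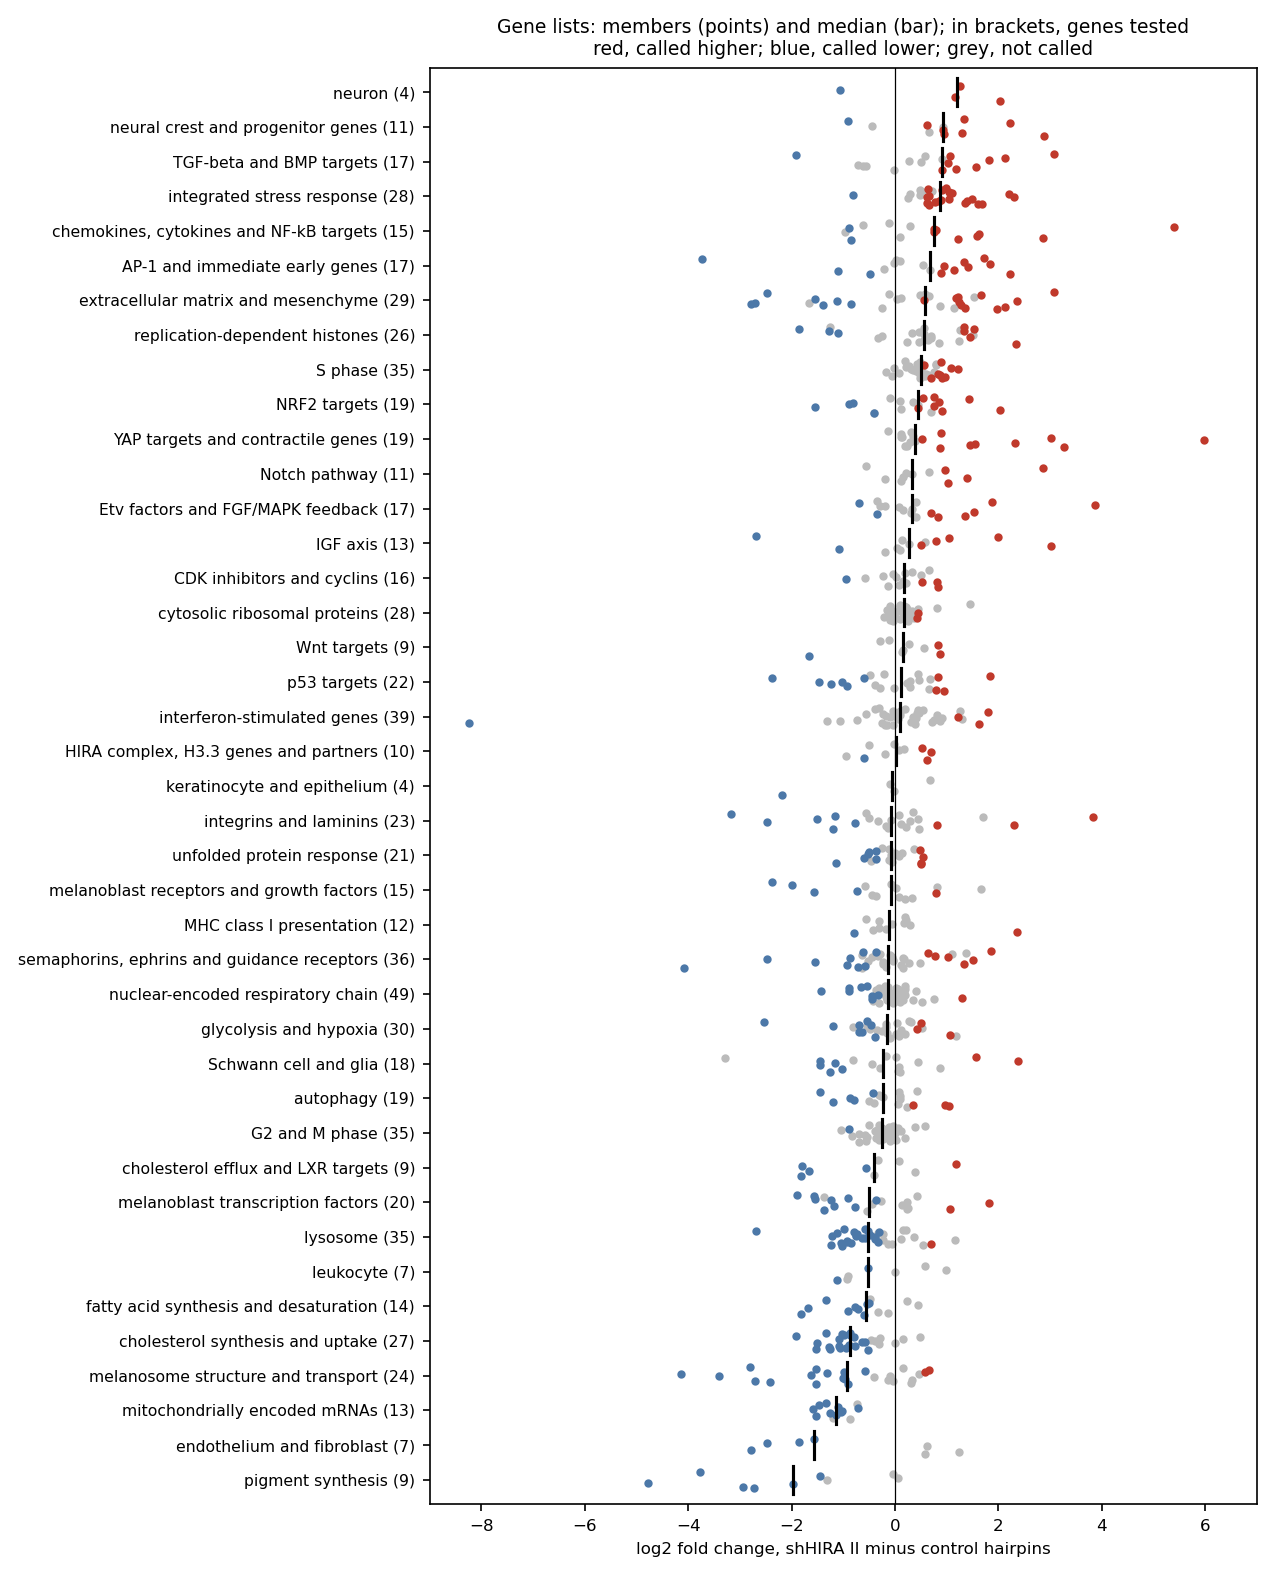
Log2 fold change of each tested member (points) of 41 gene lists, sorted by their median (bar), with called members in red (higher) or blue (lower) and the number tested in brackets. Members of 1 list often lie on both sides of 0; pigment synthesis, cholesterol synthesis and mitochondrial mRNAs have called members on the lower side only.

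The genes of pigment synthesis had the lowest median of all lists. Tyrosinase (Tyr, chromosome 7, 87424771 to 87493512, minus strand), the rate-limiting enzyme of melanin synthesis, was at 3.47, 9.1, 9.39 and 5.89 CPM with shHIRA II, 162, 51.1, 309 and 225 CPM with shLuciferase and 94.4, 268, 242 and 178 CPM with shScramble. The groups did not overlap, and the difference was -4.78 (SE 0.54, adjusted p = 6.05e-06). Tyrp1, a melanosomal oxidase of the same pathway, was at 85.5, 183, 287 and 173 CPM, and the 8 control hairpin libraries ranged from 1317 to 3712 CPM (log2 fold change -3.77, SE 0.49, adjusted p = 2.28e-05). Dct, the dopachrome tautomerase, was at 131, 205, 178 and 130.3 CPM against 709 to 1406 CPM (log2 fold change -2.72, SE 0.31, adjusted p = 6.05e-06). The ion and solute carriers of the melanosome moved with the enzymes: Slc24a5 fell by 2.94 (SE 0.28, adjusted p = 1.69e-06) and Slc45a2 fell by 1.45 (SE 0.19, adjusted p = 2.28e-05). In all, 6 of 9 tested members fell and 0 rose, with a median of -1.97. Oca2, a melanosomal transporter at low levels (0.398 to 1.18 CPM against 0.435 to 4.24 CPM), differed by -1.32 without passing (adjusted p = 0.133); that sign turned with the mitochondrial covariate (0.17) and against parental cells (0.035).

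The melanosome genes are shown with their promoters, since MITF is known to bind the M-box, here the letters TCATGTG on either strand, and related factors bind the CLEAR core, TCACGTG, which differs from it by 1 base. Windows of 250 bases before the gene start were taken from RefSeq (GRCm38.p6). The M-box letters stood in the window of 4 of the 8 pigment synthesis genes with one (50%), which were Tyr, Tyrp1, Dct and Slc24a5, and in 3.72% of all 27025 genes with a window. These 4 had the largest falls of that list, and for Dct the nearer of 2 matches is shown. Among 20 melanosome genes with a window it stood in 3 (15%): Tspan10 and Trpm1, which fell by 2.71 and fell by 4.15, and Hps1, which did not pass (0.16). Trpm1 (adjusted p = 0.0193) was not examined under the alternative fits. Without the letters in their windows, Ap3b1, Gpnmb, Hps3, Hps5, Lyst, Myo5a, Rab27a and Rab32 fell as well, and Bloc1s5 and Exoc5 rose. Bloc1s1, Bloc1s3, Cd63, Dtnbp1, Hps4, Hps6 and Mlph lacked them too and did not pass. Falls were thus found both with and without the letters. Ap3b1, Exoc5, Hps5, Lyst and Rab32 were likewise not examined one by one under the alternative fits. A match describes letters in a window and is not a site of binding. In the lines below, each 5′ to 3′ in the direction of the gene, capitals mark the M-box or its reverse complement, which starts 22, 47, 151, 13 and 21 bases before the gene start for Tyr, Tyrp1, Dct, Slc24a5 and Tspan10.
Tyr, chr7:87493518-87493544, minus strand: aaaaagttagTCATGTGctttgcagaa
Tyrp1, chr4:80834156-80834182, plus strand: ggggagggagTCATGTGctgcctagta
Dct, chr14:118052381-118052407, minus strand: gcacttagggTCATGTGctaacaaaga
Slc24a5, chr2:125068104-125068126, plus strand: ggagactgctCACATGAttcagc
Tspan10, chr11:120442600-120442626, plus strand: tgtgactcctCACATGAtaccactgtg
The whole Tyr window is given because Tyr had the largest fall of the list. It runs from 250 bases to 1 base before the start (chr7:87493513-87493762, minus strand).
Tyr window: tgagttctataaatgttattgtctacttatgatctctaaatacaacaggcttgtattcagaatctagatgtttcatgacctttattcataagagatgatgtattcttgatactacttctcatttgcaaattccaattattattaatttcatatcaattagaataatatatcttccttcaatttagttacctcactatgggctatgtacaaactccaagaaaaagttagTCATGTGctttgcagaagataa

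Of 24 tested genes of melanosome structure and transport, 14 fell and 2 rose, with a median of -0.94. Pmel, whose protein forms the fibrils on which melanin is laid, was at 7.9, 20.5, 27.0 and 15.9 CPM with shHIRA II, 176, 124, 219 and 213 CPM with shLuciferase and 138, 211, 236 and 191 CPM with shScramble. Every shHIRA II library lay below every control (log2 fold change -3.40, SE 0.36, adjusted p = 3.48e-06). Tspan10 (-2.71), a tetraspanin of the lineage whose M-box letters stand above, and Mlana (-1.32), a melanosomal membrane protein, also fell (adjusted p = 2.01e-06 and 0.000187). Genes of the machinery that moves melanosomes to the cell edge were not all called. Rab27a, the GTPase on the melanosome, was at 27.4, 56.7, 64.7 and 47.4 CPM against 202 to 330.4 CPM (log2 fold change -2.42, SE 0.23, adjusted p = 1.69e-06), and Myo5a, its motor, fell by 1.53 (adjusted p = 0.00162), a call that was lost under the covariate (-0.56). Mlph, the adaptor that joins them, showed 0.32 and did not pass (adjusted p = 0.246); its sign turned against parental cells (-0.30). Hps3, a subunit of a trafficking complex named for its role in a pigment disorder, fell by 1.62 and Gpnmb, a glycoprotein related to Pmel, fell by 0.97 (adjusted p = 2.55e-06 and 0.000447). Bloc1s5, a subunit of another such complex, rose by 0.66 (adjusted p = 0.00259), a call lost with the covariate and against parental cells.

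The transcription factors of the lineage were lower in 9 of 20 tested members and higher in 2 (Id1 and Id3), with a median of -0.50. Mitf (chromosome 6, 97807052 to 98021349) was at 105, 153, 203 and 142 CPM with shHIRA II, 573, 645, 527 and 565 CPM with shLuciferase and 533, 604, 471 and 568 CPM with shScramble. The highest shHIRA II value was less than the lowest control value (log2 fold change -1.90, SE 0.22, adjusted p = 8.8e-06). Other regulators fell too: Foxd3, a factor of the early neural crest (15.9 to 24.01 CPM against 43.1 to 80.4 CPM; -1.56), Irf4, which acts with MITF on Tyr (3.58 to 8.52 CPM against 12.2 to 21.9 CPM; -1.54), and Tfap2a (19.4 to 26.7 CPM against 44.0 to 69.7 CPM; -1.17), with adjusted p = 3.07e-05, 5.62e-05 and 7.62e-05. Ets1 (-0.77) and Zeb2 (-0.90) fell less, and the Zeb2 call was lost with the covariate (-0.19), which left 6 lower and 0 higher members of the list. Pax3, which drives Mitf, did not pass: 109, 124, 141 and 133 CPM overlapped the controls at 131 to 197 CPM (log2 fold change -0.26, SE 0.14, adjusted p = 0.151), and its sign turned with the covariate (0.02). Sox10 was at or below 0.564 CPM with shHIRA II and shLuciferase alike, while shScramble libraries held 16.7, 18.3, 2.22 and 0.187 CPM. The Sox10 difference (-1.38, adjusted p = 0.58) took the sign of the control chosen: it was 2.11 against shLuciferase alone (adjusted p = 0.492) and -4.86 against shScramble alone (adjusted p = 0.0395).

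Among receptors, the gene for the SCF receptor Kit (chromosome 5, 75574916 to 75656722) was at 52.1, 66.9, 147 and 86.6 CPM with shHIRA II, 553, 371, 550.1 and 445 CPM with shLuciferase and 455, 365, 429.7 and 492 CPM with shScramble. All shHIRA II values were far below the controls (log2 fold change -2.37, SE 0.32, adjusted p = 2.85e-05). Met, the receptor of hepatocyte growth factor, was at 73.5, 123, 195 and 107 CPM against 371 to 734 CPM (log2 fold change -1.98, SE 0.35, adjusted p = 0.000336). Igf1r, the receptor of IGF1, was the member that rose (56.5 to 87.5 CPM against 33.6 to 62.8 CPM; 0.79, adjusted p = 0.00448). The melanocortin receptor Mc1r (-0.37, adjusted p = 0.165) and the neuregulin receptor Erbb3 (-0.44, adjusted p = 0.164) did not pass, and the Erbb3 sign turned with the covariate (0.071). Of 15 tested receptors and growth factors 4 fell (2 without shHIRA II replicate 1) and 1 rose, with a median of -0.08, near that of all genes.

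Outputs of FGF and MAPK signalling moved the other way from Kit, and only in part. Etv4 (chromosome 11, 101769742 to 101785371), an Ets factor induced by FGF, was at 65.3, 38.2, 31.9 and 49.4 CPM with shHIRA II, 11.6, 0.495, 3.21 and 2.9 CPM with shLuciferase and 5.55, 0.852, 1.35 and 1.12 CPM with shScramble. The shHIRA II libraries were all above the controls, whose highest values were both from replicate 1 (log2 fold change 3.86, SE 0.65, adjusted p = 0.000232). Etv5 was at 140.4, 69.8, 86.2 and 123 CPM against 81.6, 13.5, 26.8 and 26.9 with shLuciferase and 68.7, 22.0, 26.6 and 24.3 with shScramble. Library shHIRA II replicate 2 lay within the control range, and the call (log2 fold change 1.53, SE 0.47, adjusted p = 0.0174) was lost without shHIRA II replicate 1 (adjusted p = 0.0631). Etv1 rose by 1.35 (adjusted p = 0.00618). The feedback inhibitors were split: Spry4 (7.43 to 15.4 CPM against 1.31 to 8.78 CPM; 1.87, adjusted p = 0.0226) and Spry2 (0.69, adjusted p = 0.0049) rose, Spred1 fell by 0.69 (adjusted p = 0.00551), and Dusp6 (0.40, adjusted p = 0.263) and Spry1 (-0.20, adjusted p = 0.447) did not pass. The Spry4 call was lost without shHIRA II replicate 1 or without replicate 4, with differences of 1.77 and 1.76. Of 17 tested members 6 rose and 2 fell (median 0.33). With the covariate the counts were 3 and 0, and the calls of Etv1, Etv5, Spry2, Spry4 and Spred1 were lost at differences of 1.49, 1.68, 0.52, 1.79 and -0.42. The Etv4 call was kept there, but was lost with the covariate when shHIRA I replicate 3 was also left out. Against either control hairpin alone the calls of Etv5 and Spry4 were lost. An Ets site (CCGGAAGT, both strands) stood in 0 of 12 promoter windows of the list and in those of 3.23% of all genes.

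Immediate early genes, which answer growth factors and stress within minutes, rose in 8 of 17 tested members and fell in 3, with a median of 0.67. Junb, an AP-1 subunit, was at 50.8, 42.3, 37.0 and 47.1 CPM with shHIRA II, 17.3, 19.0, 12.3 and 13.9 CPM with shLuciferase and 15.6, 9.99, 12.2 and 8.23 CPM with shScramble (log2 fold change 1.73, SE 0.24, adjusted p = 3.42e-05). Maff, a small MAF factor, rose by 1.40 and Btg2, an antiproliferative gene, by 1.84 (adjusted p = 8.77e-05 and 8.93e-06). Egr1 (34.3 to 60.2 CPM against 15.2 to 30.8 CPM; 1.14, adjusted p = 0.0047) and Fos (16.0 to 19.2 CPM against 5.85 to 22.6 CPM; 0.94, adjusted p = 0.02) rose less; the Egr1 call was lost with the covariate and the Fos call against shLuciferase alone, whose replicate 2 held 22.6 CPM. Other members fell: the orphan nuclear receptor Nr4a3 was at 3.53, 5.41, 11.1 and 6.46 CPM against 50.5 to 143 CPM (log2 fold change -3.73, SE 0.42, adjusted p = 6.05e-06), and Myc fell by 0.48 and Klf2 fell by 1.10 (adjusted p = 0.00461 and 0.00299). Jun did not pass (-0.21, adjusted p = 0.198).

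**Figure D4:**
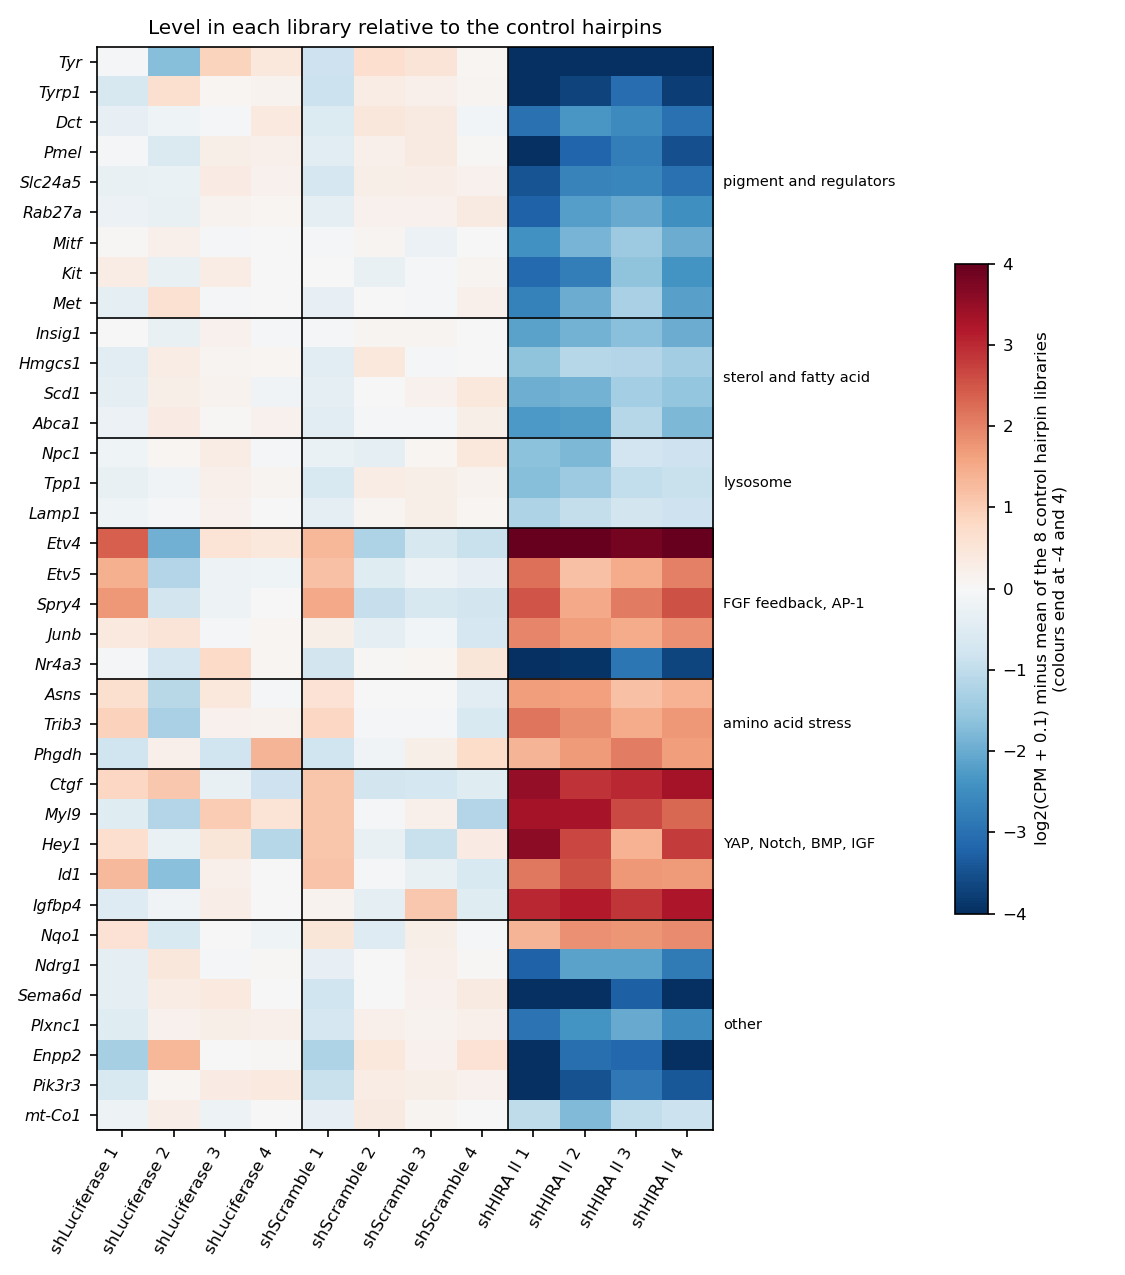
Level of 36 genes in each of the 12 libraries, as log2(CPM + 0.1) minus the mean of the 8 control hairpin libraries (red higher, blue lower, colours ending at -4 and 4). The 4 shHIRA II columns differ from the controls in every block, and the shLuciferase 1 and shScramble 1 columns lie on the shHIRA II side of the other controls for Etv4, Etv5 and Spry4.

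Of 27 tested genes of cholesterol synthesis and uptake, 20 fell, 0 rose and 7 were not called, with a median of -0.87. These genes are driven by SREBP2, which is released from the endoplasmic reticulum when sterols are scarce, and INSIG1 holds it back. Insig1 (chromosome 5, 28071363 to 28078662) was itself at 48.7, 58.9, 67.5 and 55.3 CPM with shHIRA II, 212, 177, 242 and 211 CPM with shLuciferase and 208, 236, 235 and 219 CPM with shScramble. It had the lowest p of the 6 markers given with the comparison (log2 fold change -1.92, SE 0.13, adjusted p = 7.69e-08). Hmgcs1, an early enzyme of the pathway, was at 59.1, 81.8, 81.0 and 69.5 CPM against 136 to 242 CPM (log2 fold change -1.34, SE 0.19, adjusted p = 3.88e-05). Later enzymes fell as well: Idi1 fell by 1.28, Cyp51 fell by 1.09 and Dhcr7 fell by 0.99, with adjusted p = 0.000599, 0.000159 and 2.22e-05. Srebf2, which encodes SREBP2, fell by 0.87 (adjusted p = 0.000287). Lss, the lanosterol synthase, spread from 36.1 to 113 CPM among the shHIRA II libraries and did not pass (-0.28, adjusted p = 0.45), yet it did without shHIRA II replicate 4 (-0.70). The letters TCACNCCAC of a sterol regulatory element stood in 1 of 19 windows of the list, that of Hmgcs1, and in 1.22% of all genes; they are shown in capitals because Hmgcs1 is a textbook target of SREBP2.
Hmgcs1, chr13:119690204-119690232, plus strand: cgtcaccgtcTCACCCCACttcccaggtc

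Genes on the other sides of sterol balance did not follow 1 direction. The sterol exporter Abca1 (chromosome 4, 53030787 to 53159895) was at 33.2, 34.1, 73.2 and 46.7 CPM with shHIRA II, 139, 203, 168 and 183 CPM with shLuciferase and 118, 157, 155 and 192 CPM with shScramble, with no overlap (log2 fold change -1.81, SE 0.30, adjusted p = 0.000195). Abcg1, which also exports sterols and like Abca1 is a target of the oxysterol receptor LXR, fell by 1.79 (adjusted p = 0.000558). Nr1h3, which encodes an LXR, rose from a low level (1.23 to 1.96 CPM against 0.297 to 1.02 CPM; log2 fold change 1.17, SE 0.32, adjusted p = 0.0096), a call lost with the covariate and against shScramble alone. Of 9 tested efflux and LXR genes 4 fell and 1 rose (median -0.40); Apoe did not pass (0.38, adjusted p = 0.289). Soat2, which esterifies cholesterol and is in none of these lists, rose (4.05 to 5.97 CPM against 0.149 to 0.761 CPM; log2 fold change 3.48, SE 0.42, adjusted p = 1.02e-05). In fatty acid synthesis and desaturation 9 of 14 tested members fell and 0 rose, with a median of -0.56. The desaturases changed most: Scd2 was at 293, 398, 500.3 and 441 CPM against 1017 to 2020.0 CPM (log2 fold change -1.81, SE 0.25, adjusted p = 4.07e-05), and Scd1 fell by 1.69 (adjusted p = 1.12e-05). Acly, which makes the acetyl-CoA for both pathways, fell by 0.92 (adjusted p = 0.00181), and the fatty acid synthase Fasn did not pass (-0.33, adjusted p = 0.195), though it did with the covariate (-0.74) and against parental cells (-0.88).

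Lysosomal genes were mostly lower: 23 of 35 tested members fell and 1 rose, with a median of -0.52. Without shHIRA II replicate 1 the lower count was 14, and under the covariate 17 members were lower and 3 higher. Lamp1, a main glycoprotein of the lysosomal membrane (chromosome 8, 13159161 to 13175338), was at 922, 1136, 1328 and 1242 CPM with shHIRA II, 1944, 2128, 2454 and 2227 CPM with shLuciferase and 1702, 2348, 2558 and 2321 CPM with shScramble. The groups were apart (log2 fold change -0.93, SE 0.13, adjusted p = 5e-05). Among enzymes and transporters, the peptidase Tpp1 fell by 1.24, the cathepsin Ctsb fell by 0.86, the saposin precursor Psap fell by 0.79 and the hexosaminidase subunit Hexa fell by 0.59, with adjusted p = 0.00022, 0.000393, 0.00155 and 0.00238. Npc1, which carries cholesterol out of the lysosome, was at 45.6, 40.7, 83.4 and 79.8 CPM against 109.7 to 192 CPM (log2 fold change -1.22, SE 0.27, adjusted p = 0.00192), and its call was lost with the covariate (-0.91). The calcium channel Mcoln1 fell by 0.75 (adjusted p = 8.63e-05). A subunit of the proton pump, Atp6v1h, was the member that rose (168 to 237 CPM against 106 to 150.4 CPM; log2 fold change 0.70, SE 0.13, adjusted p = 0.000372). Against parental cells 12 members were lower and 4 higher, and Hexa (-0.21) and Mcoln1 (-0.28) did not pass.

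The CLEAR core, which TFEB and MITF are known to bind, stood in 11 of 27 lysosomal windows (40.7%) and in 3.58% of all genes. Its reverse complement overlaps it where the letters TCACGTGA occur, so such a stretch gives 2 matches. Of the 11 genes, 7 fell and 4 did not pass (Cln3, Gla, Glb1 and Naglu, with differences of 1.15, 0.36, -0.14 and -0.23). Among genes whose window lacked the core, Atp6ap1, Atp6v0d1, Cd68, Ctsc, Gusb, Hexa, Lamp2, Npc2, Psap and Tpp1 fell too. Ctsl, Ctsz, Grn, Lipa, Neu1 and Scarb2 lacked it and did not pass. Falls were thus found both with and without the letters. The windows of Lamp1 and Gla held the most matches, 4 each. That of Lamp1, which fell, is shown to let the letters be seen, and its matches start 62, 45, 28 and 16 bases before the gene start, with the core or its reverse complement in capitals (chr8:13158911-13159160, plus strand). The Mcoln1 window held others, of which 1 is shown.
Lamp1 window: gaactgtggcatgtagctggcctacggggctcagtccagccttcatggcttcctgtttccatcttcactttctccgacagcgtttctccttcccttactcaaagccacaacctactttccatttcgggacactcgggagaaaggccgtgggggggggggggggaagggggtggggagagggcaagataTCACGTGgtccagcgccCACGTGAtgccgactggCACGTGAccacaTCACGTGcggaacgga
Mcoln1, chr8:3500437-3500463, plus strand: gtcgcgcttgTCACGTGttcagttcag
Autophagy genes were divided, with 5 of 19 tested lower and 3 higher (median -0.24). Sqstm1, the cargo receptor p62, was at 1757, 1603, 1250.4 and 1585 CPM against 648 to 824 CPM (log2 fold change 1.04, SE 0.18, adjusted p = 0.000344). Uvrag fell by 1.46 (adjusted p = 0.00728) with overlapping ranges, and the call was lost with the covariate (-1.02).

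The integrated stress response, in which the factor ATF4 raises genes of amino acid supply, was higher in 21 of 28 tested members and lower in 1, with a median of 0.87. Asns, the asparagine synthetase (chromosome 6, 7675169 to 7693254), was at 808, 779, 565 and 667 CPM with shHIRA II, 389.6, 118, 342 and 241 CPM with shLuciferase and 373, 251, 256 and 183 CPM with shScramble. The groups did not overlap (log2 fold change 1.39, SE 0.34, adjusted p = 0.00439). Trib3, a pseudokinase that ATF4 induces, was at 157, 129, 99.9 and 119 CPM against 14.3 to 67.8 CPM (log2 fold change 1.68, SE 0.39, adjusted p = 0.00306). Chac1, which degrades glutathione, rose by 1.49, Sesn2 by 1.05 and the serine synthesis enzyme Psat1 by 0.91, with adjusted p = 0.00461, 0.00272 and 0.0141. Ddit3, which encodes CHOP, rose by 0.63 (adjusted p = 0.0135) and lost its call without shHIRA II replicate 2 (0.49). Slc7a11, the cystine importer, rose by 0.85 (adjusted p = 0.0096). Atf4 itself did not pass (385 to 471 CPM against 183 to 404 CPM; log2 fold change 0.48, SE 0.19, adjusted p = 0.056), but did with a replicate block (0.52), with DESeq2, with limma and without shLuciferase replicate 1 or shScramble replicate 1. Mthfd2 did not pass (0.62, adjusted p = 0.137), but did with the block (0.76), without shLuciferase replicate 1 (0.80) and against parental cells (1.42). The counts of this list moved with the mitochondrial share: under that covariate 5 of the 28 members were higher, beside 1236 of all 13541 genes. Asns (0.51), Trib3 (0.80), Chac1 (0.84), Sesn2 (0.68), Psat1 (0.31) and Ddit3 (0.32) lost their calls there. Whether the lower mitochondrial share has a part in these differences was not tested.

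The unfolded protein response, which guards the endoplasmic reticulum, was divided: 4 of 21 tested members rose and 6 fell (3 without shHIRA II replicate 1), with a median of -0.08. The chaperone Hspa5 (BiP) rose (696 to 914 CPM against 465 to 660.2 CPM; log2 fold change 0.48, SE 0.12, adjusted p = 0.00484), a call lost with the covariate and against parental cells. Dnajb9, a target of the IRE1 and XBP1 branch, fell (25.7 to 31.8 CPM against 48.9 to 82.5 CPM; log2 fold change -1.14, SE 0.26, adjusted p = 0.00265), a call lost in the same 2 settings. Hsp90b1 did not pass (-0.47, adjusted p = 0.0665), but did with the block (-0.43), with 12 libraries, without shScramble replicate 3 (-0.54) and against parental cells (-0.64).

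Targets of YAP and genes of contractile fibres rose in 9 of 19 tested members and fell in 0, with a median of 0.38, and 10 were higher with the covariate. Ctgf, a matricellular YAP target, was at 35.2, 23.1, 24.9 and 31.0 CPM with shHIRA II, 5.4, 6.49, 2.44 and 1.65 CPM with shLuciferase and 6.63, 1.76, 1.81 and 2.12 CPM with shScramble. Every shHIRA II library lay above every control (log2 fold change 3.02, SE 0.35, adjusted p = 8.93e-06). The related gene Cyr61 rose by 1.46 (adjusted p = 0.00395), a call lost against parental cells (0.77). Tagln (transgelin), an actin-binding protein of smooth muscle, was at 13.6, 14.7, 12.4 and 9.04 CPM against 1.5 to 6.83 CPM (log2 fold change 2.33, SE 0.30, adjusted p = 1.87e-05). Myl9, a myosin light chain, rose at a low level (1.01 to 2.16 CPM against 0 to 0.381 CPM; log2 fold change 3.27, SE 0.73, adjusted p = 0.00239). Ankrd1 was above 0 in 1 of 8 control hairpin libraries and in all 4 with shHIRA II: 53 estimated counts against 1 over the controls, a ratio of 107 after scaling (95% interval from counting error alone, 18.4 to 4298).

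The extracellular matrix list held called members on both sides, 11 higher and 7 lower of 29 tested (median 0.58), and 6 higher without shHIRA II replicate 4 or without shScramble replicate 3. The median was 0.056 against shLuciferase alone and 0.91 against shScramble alone, and 3 members were higher and 7 lower against both. The small proteoglycans fell: Dcn was at 2.9, 5.93, 6.67 and 4.83 CPM against 16.4 to 40.9 CPM (log2 fold change -2.47, SE 0.32, adjusted p = 2.13e-05) and Lum fell by 2.78 (adjusted p = 0.000657). Col1a2, a chain of type I collagen, fell by 1.12 and osteopontin (Spp1) fell by 1.40 (adjusted p = 0.00494 and 0.000289). Thbs1 did not pass (0.48, adjusted p = 0.329), but did without shLuciferase replicate 2 (0.84), the control that held 363 CPM, and with the covariate (1.33). Laminin chains changed in opposite directions. Lamb1 was at 28.0, 2.88, 15.4 and 9.15 CPM against 0.509 to 1.62 CPM (log2 fold change 3.84, SE 0.56, adjusted p = 5.88e-05), while Lama2 was at 1.25, 1.61, 2.05 and 1.63 CPM against 4.27 to 28.0 CPM (log2 fold change -3.17, SE 0.50, adjusted p = 0.000125). The integrin subunits Itgb4 and Itgb3 fell by 2.47 and fell by 1.17 (adjusted p = 3.34e-05 and 1.57e-05). Of 23 integrin and laminin genes 3 rose (1 without shHIRA II replicate 4) and 6 fell, with a median of -0.07.

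Among signalling pathways, 8 of 17 tested TGF-beta and BMP targets rose and 1 fell (median 0.90), and 4 were higher with the covariate. Id1, a BMP target that blocks basic helix-loop-helix factors, was at 67.9, 93.1, 52.9 and 51.3 CPM against 38.7, 4.85, 18.1 and 15.8 with shLuciferase and 35.0, 15.04, 12.9 and 10.2 with shScramble (log2 fold change 1.82, SE 0.48, adjusted p = 0.00724); the call was lost with the covariate (0.85) and against parental cells (0.92). The feedback regulators Skil (1.56), Smad7 (1.03) and Bambi (0.90) rose, with adjusted p = 0.000293, 0.0053 and 0.00015, and the matrix protein Tgfbi fell by 1.92 (adjusted p = 0.00113). In the Notch pathway 4 of 11 tested members rose and 0 fell (median 0.33). Hey1, a Notch target, was at 5.52, 2.94, 1.13 and 3.2 CPM against 0.114 to 0.924 CPM (log2 fold change 2.86, SE 0.51, adjusted p = 0.000365), and Hes1 rose by 1.40, the receptor Notch1 by 0.97 and the ligand Dll1 by 1.03 (adjusted p = 0.00105, 0.0115 and 0.011). The calls of Hes1 and Notch1 were lost with the covariate, and those of Hes1, Notch1 and Dll1 against parental cells. Of 9 Wnt targets 2 rose and 1 fell (median 0.15); the latter was Axin2 (0.346 to 0.505 CPM against 0.594 to 1.71 CPM; -1.66, adjusted p = 0.0259), whose call was lost without shHIRA II replicate 1, 2 or 3 in turn.

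In the IGF axis the binding proteins diverged: Igfbp4 rose (21.8 to 28.2 CPM against 2.02 to 6.26 CPM; log2 fold change 3.02, SE 0.34, adjusted p = 6.05e-06) and Igfbp5 fell (0.284 to 0.842 CPM against 0.816 to 6.55 CPM; log2 fold change -2.69, SE 0.75, adjusted p = 0.0105), the latter without passing under the covariate (-1.65) or against parental cells (-1.42). Igf2bp1, an RNA-binding protein of embryonic tissues, was at 78.8, 32.8, 56.6 and 84.4 CPM against 8.49 to 26.6 CPM (log2 fold change 2.00, SE 0.31, adjusted p = 0.00011). In all 5 of 13 tested members rose (3 without shHIRA II replicate 3 or 4) and 2 fell, with a median of 0.27. Genes of the neural crest and of progenitors rose in 7 of 11 tested members and fell in 1, with a median of 0.93. Aldh1a1, a retinoic acid-making enzyme, was at 15.1, 12.5, 9.6 and 10.6 CPM against 0.512 to 2.62 CPM (log2 fold change 2.89, SE 0.37, adjusted p = 2e-05), and nestin (Nes), an intermediate filament of progenitors, rose by 0.93 (adjusted p = 0.000362), a call lost against parental cells (0.35). Snai2 did not pass (0.25, adjusted p = 0.346).

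Guidance molecules held some of the largest falls but no common direction, with 9 of 36 tested lower, 6 higher and a median of -0.13. Sema6d, a transmembrane semaphorin (chromosome 2, 124089969 to 124667770), was at 3.18, 4.84, 10.9 and 6.57 CPM with shHIRA II, 80.0, 129, 137 and 107 CPM with shLuciferase and 60.03, 105, 117 and 135 CPM with shScramble. The difference was -4.09 (SE 0.42, adjusted p = 2.55e-06). Plxnc1, a semaphorin receptor of melanocytes, was at 45.8, 67.9, 87.7 and 60.5 CPM against 225 to 417 CPM (log2 fold change -2.48, SE 0.30, adjusted p = 1.28e-05). Nrp1, a co-receptor of semaphorins and VEGF, fell by 0.93 (adjusted p = 0.00174), a call lost with the covariate (-0.71).

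In S phase 9 of 35 tested members rose and 0 fell (median 0.50), but the count was 2 without shHIRA II replicate 2, 4 without shHIRA II replicate 1, 5 without shScramble replicate 2, 3 or 4, 16 without shLuciferase replicate 1, 20 without shScramble replicate 1 and 0 with the covariate. Against parental cells 0 rose and 2 fell. Of 35 genes of G2 and M phase 1 fell, Gas2l3 (-0.89, adjusted p = 0.0312), and that call was lost without shHIRA II replicate 1, 2 or 4, shLuciferase replicate 1 or shScramble replicate 1; Mki67 (159.8 to 268 CPM against 165 to 635 CPM; -0.71) and Top2a (-0.22) did not pass (adjusted p = 0.199 and 0.635). Against parental cells 8 members were lower. Of 16 CDK inhibitors and cyclins 3 rose and 1 fell (median 0.17). The D-type cyclins Ccnd1 and Ccnd3, which start the cycle, rose by 0.84 and 0.81 (adjusted p = 0.00164 and 0.000219); Ccnd3 did not pass against parental cells (0.36). Targets of p53 went both ways, 4 of 22 tested higher and 6 lower (median 0.11). Btg2, given above with the immediate early genes, had the largest rise of this list (1.84). Trp53inp1 was at 24.6, 27.5, 35.2 and 26.8 CPM against 87.2 to 246 CPM (log2 fold change -2.38, SE 0.40, adjusted p = 0.000224) and Ccng1 fell by 1.03 (adjusted p = 0.000675), while the CDK inhibitor Cdkn1a (22.7 to 34.0 CPM against 10.2 to 21.5 CPM; log2 fold change 0.65, SE 0.26, adjusted p = 0.063) and the p53 ligase Mdm2 (0.29, adjusted p = 0.0592) did not pass. Cdkn1a did pass with the block (0.69), with limma, with 12 libraries in the fit and against parental cells (1.49). Mdm2 did so with DESeq2, with 12 libraries, with the covariate (0.43) and against parental cells (0.43). Of 26 replication-dependent histone genes, whose mRNAs mostly lack poly(A) tails, 5 rose and 3 fell (median 0.57). Hist1h2bc fell by 1.27 and Hist2h2be fell by 1.09 against the control hairpins (adjusted p = 0.0133 and 0.00129), whereas against parental cells Hist1h2bc differed by 0.67 and 15 members of the list were higher.

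Redox and metabolic genes were mixed. Targets of NRF2, the factor of the oxidative stress response, rose in 8 of 19 tested members and fell in 4 (2 without shHIRA II replicate 1), with a median of 0.44. Hmox1, the haem oxygenase, was at 164, 179, 178 and 205 CPM against 88.4 to 123 CPM (log2 fold change 0.75, SE 0.13, adjusted p = 0.000268), and the sulfiredoxin Srxn1 rose by 0.44 and the thioredoxin reductase Txnrd1 by 0.91 (adjusted p = 0.00108 and 0.00158). Nqo1, a quinone reductase, rose at a low level (0.682 to 1.01 CPM against 0.099 to 0.356 CPM; log2 fold change 2.04, SE 0.46, adjusted p = 0.00262); the calls of Nqo1 and Txnrd1 were lost with the covariate. The glutathione transferase Gstm1 fell by 1.54 (adjusted p = 0.000121). Among 30 genes of glycolysis and hypoxia 8 fell and 3 rose (median -0.16); the lower count was 4 or 5 without shHIRA II replicate 1, 2 or 3. Ndrg1, which hypoxia induces in many cells, was at 72.2, 155, 155 and 96.2 CPM against 527 to 938 CPM (log2 fold change -2.54, SE 0.29, adjusted p = 6.05e-06). The mitochondrially encoded mRNAs fell in 10 of 13 members (median -1.13), 4 without shHIRA II replicate 2, the library with the lowest share. For mt-Co1, a cytochrome oxidase subunit, the levels were 5524 to 10442 CPM against 15165 to 24407 CPM (log2 fold change -1.13, SE 0.34, adjusted p = 0.0148); the call was lost without that library, and these mRNAs are what the covariate measures. Of 49 nuclear-encoded respiratory chain genes 8 fell (4 without shHIRA II replicate 1) and 1 rose, with a median of -0.13, and 20 were lower with the covariate. Ndufa4 (34.5 to 77.1 CPM against 93.0 to 194 CPM; log2 fold change -1.43, SE 0.19, adjusted p = 2.47e-05) had the largest fall of them. Of 28 cytosolic ribosomal protein genes 2 rose and 0 fell (median 0.17).

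Immune lists gave few calls against the control hairpins, apart from chemokines and cytokines. Of 39 interferon-stimulated genes 3 rose and 1 fell (4 without shScramble replicate 1), with a median of 0.10; against parental cells, which had no virus, 35 were higher with a median of 2.11. Of 12 genes of MHC class I presentation 1 rose and 1 fell (median -0.12). B2m, the light chain of MHC class I, fell against the control hairpins (457 to 682 CPM against 703 to 1531 CPM; log2 fold change -0.78, SE 0.20, adjusted p = 0.00577) and differed by 0.19 from parental cells without passing. H2-T23, a non-classical class I gene, rose (5.95 to 15.2 CPM against 0.797 to 4.27 CPM; log2 fold change 2.36, SE 0.54, adjusted p = 0.00294), a call lost with the covariate (1.14). Among chemokines, cytokines and NF-kB targets 8 of 15 tested rose and 2 fell (median 0.75), and 3 were higher with the covariate. Il2rb, a cytokine receptor chain, was at 20.7, 12.1, 17.8 and 21.9 CPM against 1.87 to 3.56 CPM (log2 fold change 2.86, SE 0.28, adjusted p = 2.01e-06). Tnfaip3, a brake on NF-kB, rose by 1.21 and Csf1 by 0.76 (adjusted p = 0.00842 and 0.00676), and the Tnfaip3 call was lost with the covariate and against shLuciferase alone. The adhesion molecule Vcam1 fell by 0.89 (adjusted p = 0.00399), but not past the threshold against parental cells (-0.61). Il6, named after its values were seen, had 62 estimated counts over the 4 shHIRA II libraries and 4 counts, all in 1 library, over the 8 controls.

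Some of the largest changes belonged to no list. They were taken from the called genes whose groups did not overlap and whose higher group had a mean of at least 5 CPM, 1116 higher and 1481 lower. Prb1, a salivary proline-rich protein gene (chromosome 6, 132206795 to 132210521), was at 0.114, 0.979, 1.64 and 0.449 CPM with shHIRA II, 48.9, 5.99, 79.1 and 101 CPM with shLuciferase and 38.7, 106, 126 and 82.9 CPM with shScramble. It fell by 6.47 (SE 1.05, adjusted p = 0.000158), and by more without shHIRA II replicate 3 (-7.10). The chemokine Cxcl15 (-5.02), the transport ATPase Atp13a5 (-4.20) and Enpp2 (-3.80), which encodes the lysophosphatidic acid-making enzyme autotaxin, fell with adjusted p = 0.000274, 0.000488 and 0.000133. Pik3r3, a regulatory subunit of PI3-kinase, was at 41.6, 63.9, 99.0 and 69.1 CPM against 392.4 to 939 CPM (log2 fold change -3.46, SE 0.41, adjusted p = 8.8e-06), with 24.3% of its exonic bases shared with another gene on the same strand. Cpne4 (-3.24), Tcp11l2 (-3.23), Gjb1 (-3.13), a connexin of myelinating glia, and Adck3 (-3.09), a kinase of coenzyme Q synthesis, fell as well, each with no overlap of the groups. On the higher side, some genes encode receptor subunits of nerve cells: Chrnb2, of the nicotinic acetylcholine receptor, was at 28.0, 11.4, 14.5 and 17.5 CPM with shHIRA II, 2.19, 0.297, 0 and 0 CPM with shLuciferase and 0, 0.341, 1.03 and 0 CPM with shScramble (log2 fold change 5.25, SE 1.21, adjusted p = 0.00297), with differences of 6.49 without shLuciferase replicate 1 and 6.02 without shScramble replicate 3, and DESeq2 did not call it. Gabrr2, of the GABA receptor, was at 8.59, 3.63, 4.16 and 6.06 CPM against 0 to 0.489 CPM (log2 fold change 4.74, SE 0.57, adjusted p = 1.12e-05). Ass1, the argininosuccinate synthase, rose by 4.79 (5.68 without shScramble replicate 3; adjusted p = 5.72e-05). Others that rose were Tcte3 (4.41), Olfml3 (3.96), the adhesion receptor Gpr97 (3.65), Acap1 (3.14) and the cartilage matrix gene Comp (3.13), with adjusted p from 1.69e-06 to 4.16e-05.

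Markers of other cell types were set beside these results. Neuronal markers summed to between 57.6 and 65.3 TPM with shHIRA II and 19.3 to 45.3 TPM in the control hairpin libraries, mostly Tubb3 (74.4 to 87.2 CPM against 25.7 to 62.0 CPM; log2 fold change 1.16, SE 0.26, adjusted p = 0.00271); 13 of the 16 stayed under 1 TPM in all 12 libraries. Dcx (0.739 to 1.57 CPM against 0.163 to 0.399 CPM; 2.02) and Uchl1 (2.33 to 5.65 CPM against 1.04 to 2.45 CPM; 1.25) rose too (adjusted p = 0.00133 and 0.00636), and the calls of Tubb3 and Uchl1 were lost with the covariate. Schwann cell and glial markers, many of which melanoblasts also express, summed to 357 to 402 TPM against 452 to 705 TPM, with S100b the largest; Mbp (-1.02) and Ncam1 (-1.45) fell and Pmp22 rose (0.564 to 1.57 CPM against 0 to 0.435 CPM; 2.38), with adjusted p = 0.00131, 0.000123 and 0.00299. Endothelial and fibroblast markers summed to 8.93 to 17.6 TPM against 37.1 to 66.9 TPM, keratinocyte and epithelial markers to 3.25 to 4.77 TPM against 5.91 to 10.9 TPM, of which Cdh1 fell by 2.18 (adjusted p = 0.000198), and leukocyte markers to 14 to 19.7 TPM against 18.6 to 24.9 TPM. Of tested members, 3 of 4 neuronal markers rose and 1 fell (median 1.21), 2 of 18 glial ones rose and 5 fell (-0.23), and none of the others rose: 4 of 7 endothelial and fibroblast (-1.57), 1 of 4 keratinocyte (-0.06) and 2 of 7 leukocyte markers (-0.52) fell, the last count being 0 without shHIRA II replicate 1 and 1 without shHIRA II replicate 2 or 4, shLuciferase replicate 2 or 4 or shScramble replicate 3. Krt1 and Epcam were at 0 in all 12 libraries, and Ptprc, Cdh5 and Kdr stayed under 1 TPM. The part of other cells in the results was not tested.

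Parental cells give a second reference whose libraries are not among the controls above. Against them 3974 genes (29.3%) were called, 1954 higher (14.4%) and 2020 lower (14.9%), and 2869 (21.2%) were called against both the control hairpins and the parental cells in 1 direction, 1297 higher (9.58%) and 1572 lower (11.6%); both comparisons share the 4 shHIRA II libraries. Pmel (-3.05), Kit (-2.44), Mitf (-2.16), Etv4 (4.53) and Insig1 (-2.02) kept their direction and passed, with adjusted p = 1.61e-05, 5.93e-05, 7.17e-06, 0.000973 and 1.39e-07. Tyr was lower by a smaller difference (-2.30, adjusted p = 0.00231), and parental libraries held 33.3, 33.8, 38.8 and 31.3 CPM, all less than the control hairpins. The cholesterol list was lower in 22 of 27 members against parental cells, with a median of -1.21. Of 160 called genes examined one by one, 135 kept their call against parental cells; of those named here, Ets1, H3f3b, Hist2h2be, Psat1, Axin2 and mt-Co1 also lost it. Against shLuciferase alone the calls of Asf1a, Axin2, Dll1, Igf1r, Notch1 and Smad7 were lost as well, and against shScramble alone those of H3f3b and Gas2l3. Under the covariate Axin2, B2m, Gas2l3, Hist1h2bc and Pmp22 also lost their calls. There the HIRA complex list had 0 higher and 2 lower members, the unfolded protein response 1 and 2, Notch genes 2 and 0, p53 targets 2 and 5, histones 0 and 2, and glycolysis and hypoxia 0 and 6.

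The libraries with the other hairpin, shHIRA I, had less Hira mRNA and were tested directly against those labelled shHIRA II. In that contrast 2845 genes (21%) were called, 1164 higher (8.6%) and 1681 lower (12.4%) with shHIRA II. Library shHIRA I replicate 3 stood apart (1.23% mitochondrial counts), and with the spread estimated without it 4430 genes were called. Tyr (-2.04), Pmel (-1.75), Mitf (-1.37), Kit (-1.28) and Insig1 (-1.34) were lower with shHIRA II than with shHIRA I, and Etv4 (2.50) was higher, with adjusted p = 0.00728, 0.00207, 0.000659, 0.00967, 6.37e-06 and 0.0314. Abca1 was at 178, 579.7, 183 and 405 CPM with shHIRA I (difference -2.85, SE 0.34, adjusted p = 3.49e-05), and Vcam1 was at 113, 219, 197 and 159.6 CPM there (difference -3.81, SE 0.26, adjusted p = 7.33e-08). For Dct (-0.22, adjusted p = 0.669), Slc45a2 (-0.29, adjusted p = 0.338) and Ctgf (0.68, adjusted p = 0.271) no difference between the hairpins passed the test, which does not show that they act alike. Prb1 was at 0, 3.35, 0 and 0.495 CPM with shHIRA I and did not differ past the threshold (-0.26, adjusted p = 0.899).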

How the data were processed

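Poly(A) RNA-seq libraries of melb-a cells were analysed from the gene tables the authors deposited, 1 of estimated counts and 1 of TPM. The tools named in the submitters' processing notes are bcl2fastq, kallisto and edgeR, and the build mm10; the sources used here give no versions, annotation or strand setting, so antisense partners are uncertain. The deposited estimated counts were rounded to whole numbers. The deposited TPM values, scaled per library by the authors, served for marker sums and an alternative scaling with limma (log2 of TPM plus a pseudocount of 1 or 0.1). Columns were matched to samples by name; unlabelled control columns were taken as parental and shHIRA columns without a numeral as shHIRA I, the groups left over. Of 29956 gene rows 6990 were 0 throughout, and 27 carried spreadsheet dates as names.

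The test was edgeR's quasi-likelihood F test (edgeR 4.0.16, R 4.3.3) with TMM scaling, its filter on low counts by group (13541 genes kept), a group-means model over 20 libraries and Benjamini-Hochberg adjustment over all genes tested; adjusted p under 0.05 counts as called. The contrast was shHIRA II minus the mean of shLuciferase and shScramble. Differences are log2 fold changes with their standard errors (SE). Steps were tested on simulated data. Members of the comparison and the 41 gene lists (899 distinct genes, 791 tested) were chosen with earlier results of these data known. Named genes were the 6 given markers, core members of the lists, up to 3 called genes per list and direction with the lowest p, and the 15 largest changes per direction. Outside this rule, some melanosome and lysosomal genes, such as Trpm1, were named by whether their windows hold the letters searched for. Krt1 and Kdr were named for their low levels. Others are said to be chosen after their values were seen. Alternatives were RLE scaling, DESeq2 1.42.0, limma 3.58.1, glmTreat at 1.5-fold, other filters, other sets of libraries, covariates and leaving out each of the 12 libraries in turn. Positions are from GENCODE M21 (GRCm38), which held the symbols of 28161 rows. Promoter windows are from RefSeq (GRCm38.p6). Counts of genes that share exons or have near-identical copies (Hira, Gm28539, Fdps, Hist1h1e, Pik3r3, Spp1) are uncertain, and intervals from counts cover counting error only. With the strand setting unknown, so are those of genes that share exonic bases with the opposite strand, such as Tagln (67.9%), Asf1a (48%), Slc24a5 (39.5%) and Tcte3 (26.7%). The sequences of the hairpins were not used here. Some genes that the naming rule includes are not reported here.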

Additional observations from a re-analysis of the deposited data

Results flagged for a closer look

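A library was singled out where its gap to the nearest library of its group exceeded Dixon's 95% critical value for 4 samples. Of 156 groups of levels checked 13 met this, and at that level about 5% of groups do so by chance. The libraries were shScramble replicate 1 (7 times), shLuciferase replicate 1 (5 times) and shHIRA II replicate 2 (1 time).

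For the flagged genes the replicate 1 controls lay toward the shHIRA II values. For Kit and Mki67, which were not flagged, shLuciferase replicate 1 lay away from them as the highest control (553 and 635 CPM). In shScramble replicate 1, Etv4 was at 5.55 CPM (nearest other library 1.35), Etv5 at 68.7 (26.6), Spry4 at 7.45 (1.6) and Ctgf at 6.63 (2.12), while Slc24a5 was at 246 (441) and Plxnc1 at 225 (390). Ankrd1 was at 0.0544 CPM there and at 0 in the other 3. Where the other 3 are at 0, as here and for Il6 below, any value above 0 meets the rule. In shLuciferase replicate 1, Spry4 was at 8.78 CPM (2.56), Acap1 at 5.16 (1.88), Chrnb2 at 2.19 (0.297), Il6 at 0.237 (0) and Plxnc1 at 257 (405). The mitochondrial share of shHIRA II replicate 2 was 2.88% (nearest 4.45%).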

How the results depend on the processing

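Of 160 called genes examined one by one, 152 kept the call in all 12 fits that left out a library, and 159 kept it with DESeq2, 157 of 157 with 12 libraries in the fit, 115 with the mitochondrial share as a covariate and 135 against parental cells. Many of the 160 were named for a low p or a large change in these same data, so they do not stand for all calls. Of all 4394 calls, 4366 were kept with DESeq2 and 2007 with the covariate. Without shHIRA II replicate 2, 3292 of the 4394 were kept, and 154 of the 160. The count of called genes was 2767 with that covariate and 1201 with glmTreat at 1.5-fold; the higher count was 1236, 508 and (against shLuciferase alone) 1419, the lower one 693 with glmTreat. Called against both controls were 1718 with the covariate. Leaving out 1 library gave 3253 to 4548 called (1607 to 2238 higher, 1623 to 2314 lower) and 1811 (without shHIRA II replicate 1) to 2647 against both controls, 2988 to 4191 against parental, 1997 to 2999 against shHIRA I, 0 between controls, Hira differences of -0.25 to -0.14 and mitochondrial differences of -4.16 to -3.48. The shScramble against shLuciferase count was 1 with 12 libraries and 5 with DESeq2. The count against shHIRA I was 4430 with the spread estimated without shHIRA I replicate 3, an alternative chosen after seeing the data. Hira was -0.46 with the covariate. The replicate numbers were not taken as pairs (12 same-number pairs, r from -0.19 to 0.53, 6 over 0.1; other pairs at most 0.26); a replicate block gave 4806 calls, 4321 shared with the 4394, and 5 of 12 libraries correlated best with their own number. Replicate 1 was the highest library of all 5 groups for Etv4 and Etv5. With the covariate and shHIRA I replicate 3 left out, chosen after seeing the data, 1901 genes were called (792 higher, 1109 lower; 1530 of them among the 4394), 1158 against both controls and 1764 against shHIRA I, and Hira was -0.57. Signs turned there for Atf4 -0.066, Dusp6 -0.19, Mthfd2 -0.26, Oca2 0.55, Sox10 0.65, Spred2 -0.42 and the medians of guidance genes 0.10, CDK inhibitors and cyclins -0.15, S phase -0.30, histones -0.27, interferon-stimulated genes -0.34, ribosomal proteins -0.067 and Schwann cell genes 0.18, and 95 of the 160 genes kept the call. Among those that lost it in that fit, though not with the covariate alone, were Etv4, Abcg1, Hey1, Lum, Myl9 and Tgfbi. Leaving out 1 library, list counts also fell to 1 higher for Wnt targets (10 of 12 libraries) and interferon-stimulated genes (shScramble replicate 4, shHIRA II replicates 2, 3 and 4), 1 lower for chemokines (shHIRA II replicate 1), 2 lower for melanoblast receptors and NRF2 targets (shHIRA II replicate 1) and 0 higher for ribosomal proteins (shLuciferase replicates 2 and 3, shScramble replicates 2, 3 and 4, shHIRA II replicates 1 and 2).

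Signs turned in these cases. With the covariate: Erbb3 0.071, mt-Co1 0.035, Oca2 0.17, Pax3 0.020, Sox10 1.10, and the medians of guidance genes 0.10, p53 targets -0.017, CDK inhibitors and cyclins -0.046, interferon-stimulated genes -0.53, mitochondrial mRNAs 0.090, NRF2 targets -0.036, ribosomal proteins -0.23 and Schwann cell genes 0.083. Against parental: B2m 0.19, Hist1h2bc 0.67, Mlph -0.30, Oca2 0.035, and the medians of autophagy 0.17, S phase -0.12, MHC class I 0.46, glycolysis and hypoxia 0.019 and ribosomal proteins -0.071. Sox10 was 2.11 against shLuciferase alone and guidance genes 0.071 against shScramble alone. Leaving out 1 library, Ubn2 ranged from -0.0056 (without shHIRA II replicate 4) to 0.16, the MHC class I median from -0.22 to 0.048 (without replicate 1) and the ribosomal protein median from -0.018 (without replicate 2) to 0.30. Histones were -1.05 at a mean of at least 5 CPM, and endothelium and fibroblast genes 0.61 with no filter and 0.63 with DESeq2, where other members are tested. The cause was not tested for the others. Depth limits genes near 1 CPM (Nqo1, Myl9, Hey1, Dcx).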
